A study of Homo sapiens with 24 samples.

Results

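The genes described here crossed from undetected to detected, or the reverse, in 3 different knockdowns of SKBR3 breast cancer cells at once. On the 18 knockdown arrays and the 6 control arrays of the study, each gene was read through its probe with the highest mean, and a detection floor was set at a probe intensity of 106, the 95th percentile of 437 probes for olfactory receptor genes. A gene counted as On when it was above that floor on all 18 knockdown arrays and at or under it on all 6 control arrays, and as Off in the reverse case. The 3 knockdowns share these 6 control arrays, so their agreement does not amount to 3 independent comparisons. Of 20046 genes, 136 were On (0.678%) and 109 were Off (0.544%), 245 together (1.22%). The members were thus chosen by the knockdown and control intensities themselves, so the levels and fold bounds between knockdown and control are a description, with no test. Among the 6594 genes at or under the floor on every control array, the On genes were 2.06%, and among the 9984 genes above it on every control array, the Off genes were 1.09%. Counted from the knockdown side, On genes were 1.44% of the 9465 genes above the floor on all 18 knockdown arrays, and Off genes 2.21% of the 4928 at or under it on all 18.

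SKBR3, an established line from a human breast cancer, has amplified ERBB2, which encodes the growth factor receptor HER2. Its cells received lentiviral shRNA for 48 h against 1 of 3 targets: PMCA2, a pump encoded by ATP2B2 that exports calcium, NHERF1, a PDZ scaffold under the membrane, or HER2. The fourth group is labelled SKBR3 control; the same infection protocol stands in its label, and no hairpin is named for it. Each group had 6 Illumina arrays, labelled replicates 1 to 6, with 3 on each of 2 chips. No label ties a replicate to a separate culture, so p-values cover only array-to-array spread, which may be technical, and no label says whether a group rests on 1 hairpin or several.

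A luminal breast cancer cell makes the transcripts of a secretory gland epithelium: small secretoglobins, mucins and lipid-binding proteins, under factors such as the ETS protein SPDEF and the forkhead protein FOXA1. Genes of other tissues, among them the steroid enzymes and hormones of the placental trophoblast, are usually silent in such cells. A gene that passes a detection floor in either direction has become readable or unreadable on the array, and the floor itself is not a zero of transcription. In RNA from a whole culture, fewer cells that express a gene and less RNA per cell cannot be told apart.

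The deposited intensities are linear and still contain the background, with a median near 103 on every array. Array profiles correlated across genes with a median r of 0.996 within a group, 0.973 between different knockdowns and 0.918 between knockdown and control. Each group occupies its own positions on the chips, so the effects of position and group cannot be told apart. ERBB2 read 7280.2 to 7669 on HER2 knockdown arrays, 6786 to 7507 with PMCA2 knockdown and 4129 to 4869.6 with NHERF1 knockdown, against 13581 to 14344 on control arrays. The NHERF1 gene read 377 to 416 on its own knockdown arrays, 1969 to 2456 with PMCA2 knockdown and 2383 to 2628 with HER2 knockdown, against 3844 to 4188 in control. ATP2B2 was at or under the floor on all arrays but 1 of the NHERF1 knockdown, so its probe cannot check the PMCA2 label. Among the knockdowns, ERBB2 had its highest median with HER2 knockdown (7509), beside 7194 with PMCA2 knockdown and 4381.5 with NHERF1 knockdown. ERBB2 was lower than control in every knockdown, so its level does not single out the HER2 knockdown. Of the markers of this line's tissue, the keratin KRT8 and the adhesion protein EPCAM were above the floor on all 24 arrays, and E-cadherin (CDH1), which SKBR3 is known to lack, was at or under it on all 24.

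On genes lay just above the floor more often than far above it. Their mean knockdown intensity ran from 113 to 1319.7 with a median of 164, and their control means from 91.2 to 104. In 25 of 136 the lowest knockdown array exceeded the floor by more than 2-fold, and in 4 by more than 5-fold. The brightest Off genes reached higher. Their control means ran from 109 to 1935 with a median of 141, beside knockdown means of 91.1 to 101. The lowest control array exceeded the floor by more than 2-fold in 20 of 109, by more than 5-fold in 9 and by more than 10-fold in 4. Because the dim side is background, a change can be given only as a bound. It compares the mean of the bright group, on the background-corrected log2 scale, with the higher of the dim probe's own value and the lowest signal that counts as above the floor. For On genes this bound had a median of 3.09 and ran from 1.25 to 42.7; it reached 2 in 103 genes, 5 in 37, 10 in 24 and 20 in 10. For Off genes its median was 2.35 and it ran from 1.10 to 73.8, reaching 2 in 67 genes, 5 in 25, 10 in 13 and 20 in 9. Leaving the background in compresses ratios near the floor. Without background correction the median bounds were 1.51 for On and 1.33 for Off genes, and the highest 10.9 and 18.2. A number in parentheses after a gene's name or role is its bound, and so is each change written below as at least so many fold. Every such bound holds on the background-corrected scale and depends on that correction. For On genes it pools all 18 knockdown arrays, so a single knockdown can lie below it. Against control, HER2 knockdown alone differed by log2 4.40 for HSD3B1, 4.58 for AMOT, 4.49 for TENM3 and 4.00 for CAPN6.

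**Figure D1:**
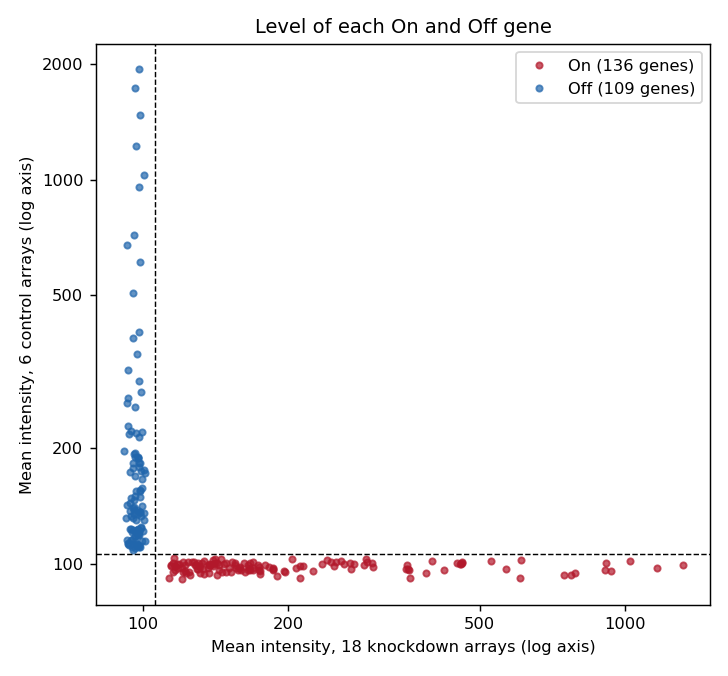
Mean probe intensity of each of the 136 On and 109 Off genes over the 18 knockdown arrays (x axis, log scale) and the 6 control arrays (y axis, log scale), with the floor as dashed lines. Most genes sit close to the floor on their bright side (medians 164 for On and 141 for Off), and the brightest reach 1319.7 for On and 1935 for Off.

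By the role of their products, On genes held 23 secreted and matrix proteins, 23 receptors and adhesion molecules, 16 channels and transporters, 19 enzymes, 28 signalling, scaffold, cytoskeleton and trafficking proteins, 19 regulators of transcription, chromatin or RNA, and 8 others. Off genes held 30 secreted and matrix proteins, 16 receptors and adhesion molecules, 5 channels and transporters, 24 enzymes, 12 signalling and scaffold proteins, 13 regulators and 9 others. Secreted and matrix proteins were thus 27.5% of Off and 16.9% of On genes, and channels and transporters 4.59% of Off and 11.8% of On genes; these classes were assigned by hand with the gene names in view and carry no test. Protein-coding genes made up 135 of the On and 105 of the Off genes.

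**Figure D2:**
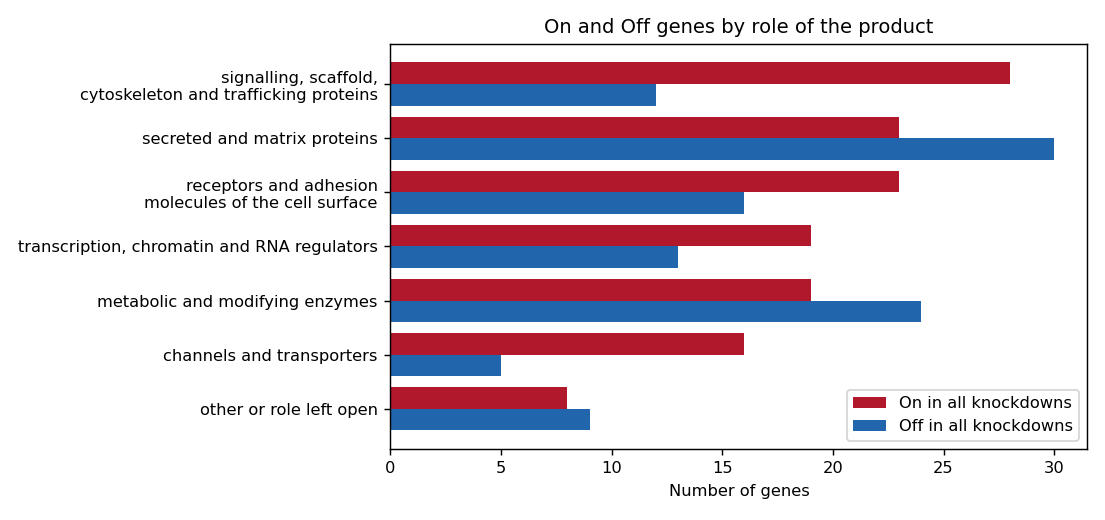
Number of On and Off genes (x axis) in each hand-assigned role class (rows), On genes as the upper bar of each pair. Secreted and matrix proteins are the most numerous Off class (30 genes), and signalling, scaffold, cytoskeleton and trafficking proteins the most numerous On class (28 genes).

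Among regulators, the On gene with the largest bound was IGF2BP3, an RNA-binding protein of embryonic tissue that is silent in most adult cells. Its intensity was 1196 to 1472 (median 1281) on PMCA2 knockdown arrays, 1243 to 1304 (median 1285) on NHERF1 knockdown arrays and 888 to 973 (median 924) on HER2 knockdown arrays, against 95.1 to 102 (median 96.8) on control arrays, at least 42.7-fold higher in the knockdowns. All 18 knockdown arrays were far above every control array, with HER2 knockdown the lowest of the 3 groups. The other 18 On regulators had smaller bounds. They included the nuclear factor NFIX (4.17), the Groucho corepressor TLE4 (3.64), the SWI/SNF ATPase SMARCA2 (3.46), the LIM homeobox factor LHX2 (3.44), the TEAD cofactor VGLL3 (3.17), the DNA demethylase TET1 (1.93) and the eye and brain factor PAX6 (1.61). LHX2 ran 123 to 217 (median 186) on the 18 knockdown arrays, against 86.9 to 97.4 (median 96.1) on the 6 control arrays. VGLL3 ran 138 to 212 (median 152) on the 18 knockdown arrays, against 88.3 to 106 (median 96.1) on the 6 control arrays. PAX6, close to the floor, ran 109 to 136 (median 123) on the 18 knockdown arrays, against 91.7 to 97.6 (median 95.1) on the 6 control arrays. None of these 3 overlapped between knockdown and control, as the rule requires.

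Enzymes that were On included several of steroid, lipid and retinoid metabolism. HSD3B1, the placental 3-beta-hydroxysteroid dehydrogenase that makes progesterone, had intensities of 2168 to 2408 (median 2232) on PMCA2 knockdown arrays, 1136 to 1214 (median 1149) on NHERF1 knockdown arrays and 478 to 562 (median 542) on HER2 knockdown arrays, against 94.6 to 104 (median 99.2) on control arrays. With all knockdown arrays pooled, HSD3B1 was at least 40.5-fold higher. SCD5, a stearoyl-CoA desaturase, read 731 to 846 (median 773) on PMCA2 knockdown arrays, 764 to 818 (median 786) on NHERF1 knockdown arrays and 684 to 867 (median 752) on HER2 knockdown arrays, against 92.1 to 95.1 (median 93.1) on control arrays, at least 27.6-fold higher. The 3 knockdown medians of SCD5 lay close together, while HSD3B1 had its highest median with PMCA2 knockdown and its lowest with HER2 knockdown. DSE, the epimerase that turns chondroitin into dermatan sulfate, read 396 to 475 (median 449) on PMCA2 knockdown arrays, 878 to 960.0 (median 902) on NHERF1 knockdown arrays and 429 to 488 (median 468) on HER2 knockdown arrays, against 88.1 to 95.1 (median 91.5) on control arrays, at least 19.4-fold higher. Further On enzymes were FADS1, a fatty acid desaturase (11.5), the retinoic acid hydroxylases CYP26B1 (6.24) and CYP26A1 (2.13), the transglutaminase TGM2 (4.403), aromatase CYP19A1 (3.602), the branched-chain aminotransferase BCAT1 (3.34) and monoamine oxidase MAOA (2.05). CYP26B1 ran 161 to 307 (median 289) on the 18 knockdown arrays, against 97.4 to 104 (median 101) on the 6 control arrays, and CYP26A1 116 to 157 (median 139) on the 18 knockdown arrays, against 90.9 to 101 (median 98.1) on the 6 control arrays; both degrade retinoic acid.

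Scaffold and cytoskeletal proteins formed the most numerous On class. AMOT, angiomotin, a junction scaffold that binds the coactivator YAP, read 1177 to 1448 (median 1321) on PMCA2 knockdown arrays, 1085 to 1214 (median 1133) on NHERF1 knockdown arrays and 573 to 684 (median 609) on HER2 knockdown arrays, against 94.5 to 106 (median 103) on control arrays. With all knockdown arrays pooled, AMOT was at least 35.5-fold higher. CAPN6, a calpain without catalytic activity that is known from placenta and binds microtubules, read 1307 to 1695 (median 1394) on PMCA2 knockdown arrays, 842 to 917 (median 882) on NHERF1 knockdown arrays and 411 to 459 (median 424) on HER2 knockdown arrays, against 96.02 to 104 (median 100.3) on control arrays. With all knockdown arrays pooled, CAPN6 was at least 28.6-fold higher. MPP1, a palmitoylated scaffold of the membrane skeleton, read 561 to 639 (median 617) on PMCA2 knockdown arrays, 649 to 696 (median 674) on NHERF1 knockdown arrays and 509 to 587 (median 545) on HER2 knockdown arrays, against 96.8 to 105 (median 103) on control arrays, at least 20.9-fold higher. In all 3 genes the lowest knockdown array was well above the highest control array. Other members of the class were the syntaxin STX11 (10.9), the atrial myosin light chain MYL7 (6.41), the calcium-binding S100A7A (4.93) and S100A12 (3.67), the tyrosine kinases LYN (3.32) and BTK (2.83), the Wnt feedback scaffold AXIN2 (3.25) and the interferon-induced IFIT1 (1.33). S100A12 ran 109 to 299 (median 182) on the 18 knockdown arrays, against 90.03 to 104 (median 95.6) on the 6 control arrays. IFIT1 ran 109 to 124 (median 115) on the 18 knockdown arrays, against 97.8 to 105 (median 99.6) on the 6 control arrays, so its separation from control was small.

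Secreted On proteins were led by proteases of the matrix. ADAMTS1, which cleaves proteoglycans, read 666 to 831 (median 688) on PMCA2 knockdown arrays, 1012 to 1116 (median 1063) on NHERF1 knockdown arrays and 872 to 986 (median 963) on HER2 knockdown arrays, against 91.7 to 101 (median 97.1) on control arrays, at least 32.4-fold higher. HTRA1, a secreted serine protease, read 814 to 912 (median 862) on PMCA2 knockdown arrays, 944 to 1078 (median 1022) on NHERF1 knockdown arrays and 458 to 511 (median 482) on HER2 knockdown arrays, against 89.9 to 99.1 (median 94.6) on control arrays, at least 26.5-fold higher. TNFRSF11B, osteoprotegerin, the decoy receptor that binds RANKL, read 335 to 453 (median 388) on PMCA2 knockdown arrays, 715 to 842 (median 807) on NHERF1 knockdown arrays and 351 to 478 (median 379) on HER2 knockdown arrays, against 98.4 to 105 (median 102) on control arrays, at least 16.3-fold higher. Knockdown and control arrays of these genes lay far apart. The rest of the class included the proteoglycan SRGN (14.5), the complement regulator C4BPB (10.7), the lipase inhibitor ANGPTL4 (5.88), the Wnt modulator DKK3 (5.22), BMP5 (5.096), leptin LEP (4.63), the collagens COL3A1 (2.61) and COL9A3 (1.55), WNT3 (2.26) and lipoprotein lipase LPL (2.12).

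At the cell surface, TENM3, a teneurin of neuronal adhesion, read 1084 to 1256 (median 1154) on PMCA2 knockdown arrays, 529 to 617 (median 574) on NHERF1 knockdown arrays and 465 to 537 (median 519.6) on HER2 knockdown arrays, against 92.4 to 95.4 (median 93.2) on control arrays. With all knockdown arrays pooled, TENM3 was at least 24.3-fold higher. CLEC1A, a C-type lectin-like receptor, read 482 to 549 (median 544) on PMCA2 knockdown arrays, 639 to 759.7 (median 708) on NHERF1 knockdown arrays and 425 to 505 (median 476) on HER2 knockdown arrays, against 94.2 to 100.4 (median 96.8) on control arrays, at least 18.98-fold higher. LRP2, the endocytic receptor megalin, read 486 to 572 (median 537) on PMCA2 knockdown arrays, 357 to 391 (median 372) on NHERF1 knockdown arrays and 393 to 532 (median 452) on HER2 knockdown arrays, against 95.6 to 102 (median 100.2) on control arrays, at least 14.6-fold higher. All 3 proteins are single-pass membrane proteins. The class also held the endothelin receptor EDNRB (14.01), the GABA-B receptor subunit GABBR2 (10.1), the tetraspanin TSPAN12 (10.03), the adhesion molecules CEACAM1 (8.47) and NRCAM (7.64), the placental and germ-cell alkaline phosphatase ALPG (6.503), the sialic-acid-binding lectins SIGLEC5 (4.74) and SIGLEC6 (4.42) and the Wnt receptor FZD6 (3.63). Of the transporters, SLC12A3, the thiazide-sensitive sodium-chloride cotransporter of kidney, read 449 to 520.1 (median 479.9) on PMCA2 knockdown arrays, 484 to 547 (median 509) on NHERF1 knockdown arrays and 361 to 404 (median 376) on HER2 knockdown arrays, against 97.8 to 106 (median 98.95) on control arrays, at least 14.8-fold higher. FXYD4, a regulator of the sodium pump (13.5), the potassium channel KCNK12 (9.63), the amino acid transporter SLC38A4 (7.15) and the drug exporter ABCB1 (2.205) were also On.

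The promoters of 6 genes are shown, as those of the 2 On genes with the largest bounds, of the 3 neighbouring Off secretoglobins and of the Off factor SPDEF. They come from RefSeq (build GRCh38.p14), run 5′ to 3′ along the gene's strand from 250 bases before to 50 after its start, and have motif matches in capitals. HSD3B1 lies at chr1:119506953-119507252 on the plus strand, IGF2BP3 at chr7:23470442-23470741 on the minus strand, SCGB2A1 at chr11:62208423-62208722 on the plus strand, SCGB1D2 at chr11:62241989-62242288 on the plus strand, SCGB2A2 at chr11:62269908-62270207 on the plus strand and SPDEF at chr6:34556280-34556579 on the minus strand.
HSD3B1: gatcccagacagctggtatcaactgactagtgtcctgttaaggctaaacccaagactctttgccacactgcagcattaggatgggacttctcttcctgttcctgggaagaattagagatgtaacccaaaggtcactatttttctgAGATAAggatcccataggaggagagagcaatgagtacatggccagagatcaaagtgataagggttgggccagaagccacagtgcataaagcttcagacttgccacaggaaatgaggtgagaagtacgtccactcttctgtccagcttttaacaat
IGF2BP3: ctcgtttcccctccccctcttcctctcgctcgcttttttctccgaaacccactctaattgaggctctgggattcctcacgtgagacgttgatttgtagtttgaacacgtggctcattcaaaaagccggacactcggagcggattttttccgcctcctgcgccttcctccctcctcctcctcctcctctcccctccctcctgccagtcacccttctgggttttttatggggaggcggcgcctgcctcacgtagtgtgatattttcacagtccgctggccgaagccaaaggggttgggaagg
SCGB2A1: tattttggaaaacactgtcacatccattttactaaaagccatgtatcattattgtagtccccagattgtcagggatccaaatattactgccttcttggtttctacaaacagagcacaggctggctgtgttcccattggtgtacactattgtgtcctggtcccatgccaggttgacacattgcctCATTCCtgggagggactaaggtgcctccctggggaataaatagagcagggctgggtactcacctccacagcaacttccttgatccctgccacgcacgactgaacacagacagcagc
SCGB1D2: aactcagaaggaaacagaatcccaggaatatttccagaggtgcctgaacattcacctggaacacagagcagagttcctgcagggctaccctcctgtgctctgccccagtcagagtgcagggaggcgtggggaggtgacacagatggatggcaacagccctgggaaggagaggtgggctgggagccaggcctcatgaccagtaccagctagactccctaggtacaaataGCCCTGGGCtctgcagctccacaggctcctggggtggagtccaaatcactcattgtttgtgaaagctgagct
SCGB2A2: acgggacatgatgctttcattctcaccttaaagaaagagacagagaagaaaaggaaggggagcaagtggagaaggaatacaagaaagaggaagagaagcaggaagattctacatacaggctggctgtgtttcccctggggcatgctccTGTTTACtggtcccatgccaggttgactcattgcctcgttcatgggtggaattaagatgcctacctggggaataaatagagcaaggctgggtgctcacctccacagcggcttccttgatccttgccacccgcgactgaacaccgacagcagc
SPDEF: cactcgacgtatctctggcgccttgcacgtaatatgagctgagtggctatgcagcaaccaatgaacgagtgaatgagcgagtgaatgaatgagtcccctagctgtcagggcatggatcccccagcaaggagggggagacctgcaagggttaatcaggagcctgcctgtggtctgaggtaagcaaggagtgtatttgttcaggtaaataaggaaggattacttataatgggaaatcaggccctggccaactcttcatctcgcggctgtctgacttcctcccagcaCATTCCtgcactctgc

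The motifs searched, on both strands, were TATAAA (the core promoter's TATA box), TGTTTAC (forkhead factors), AGATAA (factors of the GATA family), GCCNNNGGC (TFAP2 factors) and GGAATG (TEAD factors). In the sequences above, the capitals mark a GATA match in HSD3B1, TEAD matches in SCGB2A1 and SPDEF, a TFAP2 match in SCGB1D2 and a forkhead match in SCGB2A2; IGF2BP3 had none of these letters in its window. No match overlapped another. The windows of SCGB2A1 and SCGB2A2 had the same base at 62% of positions counted from the gene start, and shared an unbroken run of 21 bases that begins 96 bases before the start in both, ctggtcccatgccaggttgac. SCGB1D2, which lies between them, had 24.3% with either. Promoters were at hand for 106 On and 81 Off genes and for 15033 genes in all. Off promoters were poorer in CpG, with a median of 8 CpG per 300 bases, beside 16.5 for On promoters and 22 over all genes; 50.6% of Off, 39.6% of On and 28.4% of all promoters had 10 or fewer. The forkhead letters stood in 7.41% of Off promoters (6 of 81), in 0 of 106 On promoters and in 2.55% of all. For the other motifs the shares in On, Off and all promoters were 11.3%, 14.8% and 9.53% for TATAAA, 12.3%, 7.41% and 7.67% for AGATAA, 33%, 29.6% and 28.2% for GCCNNNGGC, and 14.2%, 14.8% and 11.6% for GGAATG. A match is a string of letters and not a bound site, and these shares carry no test.

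Off genes were led by secreted products of gland epithelium. SCGB2A2, mammaglobin A, a small secretoglobin used as a marker of breast tissue, ran 90.7 to 105 (median 98.9) on the 18 knockdown arrays, against 1814 to 2082 (median 1930.4) on the 6 control arrays, at least 73.8-fold lower in the knockdowns. ORM1, an acute-phase carrier protein, ran 93.2 to 103 (median 98.2) on the 18 knockdown arrays, against 1374 to 1655 (median 1443) on the 6 control arrays, at least 55.5-fold lower. MUCL1, small breast epithelial mucin, ran 94.00 to 104 (median 101) on the 18 knockdown arrays, against 997 to 1071 (median 1028) on the 6 control arrays, at least 37.8-fold lower. For these 3 genes the control arrays lay within a narrow band, and the knockdown arrays within the background, as the rule requires. APOD, a lipid-binding lipocalin of breast cyst fluid, ran 91.9 to 104 (median 99.5) on the 18 knockdown arrays, against 580.0 to 659.7 (median 603) on the 6 control arrays, at least 21.1-fold lower. AZGP1, zinc-alpha-2-glycoprotein, ran 93.2 to 102 (median 96.8) on the 18 knockdown arrays, against 333 to 373 (median 353) on the 6 control arrays, at least 10.8-fold lower. Both are secreted by apocrine and mammary epithelium. Next to SCGB2A2 on chromosome 11 lie its secretoglobin relatives, which were Off as well. SCGB2A1, mammaglobin B, ran 86.9 to 98.8 (median 93.5) on the 18 knockdown arrays, against 136 to 150.0 (median 145) on the 6 control arrays, and SCGB1D2, lipophilin B, ran 91.9 to 105 (median 98.1) on the 18 knockdown arrays, against 123 to 153 (median 137) on the 6 control arrays. Their bounds were 2.49 and 2.16. TFF3, a trefoil peptide secreted with mucins, ran 92.7 to 103 (median 97.1) on the 18 knockdown arrays, against 160.4 to 194 (median 178) on the 6 control arrays, at least 3.83-fold lower. WNT5A (5.56), TGFB2 (4.28), the Wnt inhibitor DKK1 (3.69), SEMA3B (3.75) and the fibrinogen chains FGB (2.91) and FGG (2.42) were Off too.

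Of the Off regulators, SPDEF, an ETS factor of luminal and secretory epithelium, ran 90.5 to 106 (median 96.2) on the 18 knockdown arrays, against 1180.4 to 1267 (median 1226) on the 6 control arrays, at least 45.6-fold lower. SRARP, a protein that binds steroid receptors in breast cells, ran 92.1 to 103 (median 97.7) on the 18 knockdown arrays, against 925 to 1002 (median 949.5) on the 6 control arrays, at least 34.9-fold lower. Both were detected on all 6 control arrays far from the floor. Others were MECOM, a zinc-finger oncoprotein (5.400), PAX9 (3.61), the homeobox factors IRX6 (2.39) and HOXC11 (1.31), TFAP2B, a factor of luminal epithelium (1.24), and SOX9 (1.16). TFAP2B ran 89.7 to 104 (median 96.3) on the 18 knockdown arrays, against 109 to 117 (median 113) on the 6 control arrays, and SOX9 93.2 to 105 (median 98.9) on the 18 knockdown arrays, against 108 to 115 (median 110.3) on the 6 control arrays; their control arrays were only slightly above the floor. FOXA1 was not a member: it ran 111 to 166 on knockdown arrays and 2499 to 2909.6 on control arrays, lower in the knockdowns yet above the floor on all 24 arrays.

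Off enzymes included SERHL2, a serine hydrolase-like protein, which ran 91.3 to 102 (median 94.98) on the 18 knockdown arrays, against 654 to 786 (median 717) on the 6 control arrays, at least 25.3-fold lower. CAPN13, a calpain protease, ran 86.2 to 98.1 (median 92.9) on the 18 knockdown arrays, against 638 to 708 (median 682) on the 6 control arrays, at least 23.6-fold lower. Both lay in the background on every knockdown array, as the rule requires. ACOX2, the peroxisomal oxidase of branched fatty acids and bile acid precursors, ran 88.5 to 103 (median 95.7) on the 18 knockdown arrays, against 372 to 399.7 (median 390.0) on the 6 control arrays, at least 12.2-fold lower. SPTSSB, a small subunit of serine palmitoyltransferase in sphingolipid synthesis, ran 87.02 to 102 (median 92.97) on the 18 knockdown arrays, against 300.1 to 335 (median 321) on the 6 control arrays, at least 9.49-fold lower. HSD17B2, which oxidises estradiol to estrone, was Off close to the floor and ran 89.7 to 104 (median 97.8) on the 18 knockdown arrays, against 114 to 129 (median 122) on the 6 control arrays. Further Off enzymes were the glycosyltransferase GCNT1 (2.67), the cytochrome CYP4Z1, known from breast (2.66), and cyclooxygenase PTGS1 (2.23).

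At the membrane, CEACAM6, an adhesion molecule of epithelial tumours, ran 90.5 to 100.4 (median 94.99) on the 18 knockdown arrays, against 484 to 556 (median 499.6) on the 6 control arrays, at least 16.97-fold lower. MALL, a MAL-related protein of lipid rafts, ran 90.8 to 104 (median 98.1) on the 18 knockdown arrays, against 371 to 433 (median 402) on the 6 control arrays, at least 12.7-fold lower. MMEL1, a neprilysin-like peptidase, ran 90.99 to 103 (median 98.5) on the 18 knockdown arrays, against 293 to 303 (median 301) on the 6 control arrays, at least 8.698-fold lower. The lactate receptor HCAR1 (7.92), the ephrin receptor EPHB6 (7.16) and the BMP receptor BMPR1B (1.69) were also Off. BCAS1, a protein of myelin and a gene of a region amplified in breast cancers, ran 89.95 to 101 (median 95.96) on the 18 knockdown arrays, against 1602 to 1861 (median 1753) on the 6 control arrays, at least 65.8-fold lower, and had a bound exceeded among Off genes by SCGB2A2. NHERF2, the close relative of the targeted NHERF1, ran 88.8 to 102 (median 95.1) on the 18 knockdown arrays, against 106 to 115 (median 111) on the 6 control arrays; it was Off by a small margin in all 3 knockdowns.

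**Figure D3:**
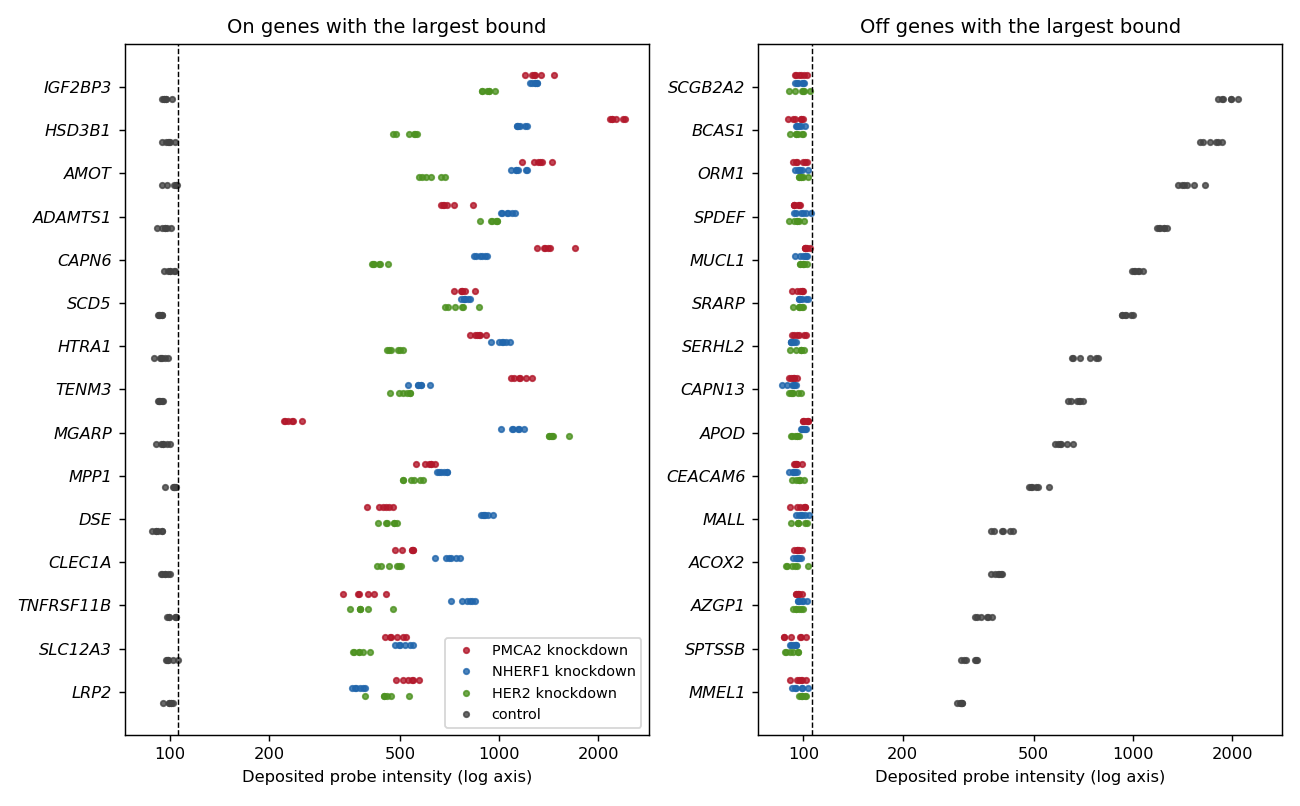
Probe intensity (x axis, log scale) on each array for the 15 On (left) and 15 Off genes (right) with the largest bounds, 6 points per group, with the floor as a dashed line. As the rule requires, On genes separate from control on every knockdown array and Off genes lie in the background in all 3 knockdowns. On genes differ in level between knockdowns, as MGARP does.

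Set against 37 gene lists, 18 lists held at least 1 of these genes and 19 held none; 119 On and 92 Off genes were in no list. The share of On genes over all 20046 genes was 0.678% and that of Off genes 0.544%. The lists were chosen with earlier results of these data known. Their medians of knockdown minus control use the rule's own contrast and include the members, so they are a description with no test. Of 32 secreted gland proteins measured, 7 were Off (AZGP1, MUCL1, ORM1, SCGB1D2, SCGB2A1, SCGB2A2 and TFF3) and 0 were On. The list's median log2 difference, knockdown minus control, was -1.54 over its 24 tested genes, or -1.31 with dim genes at their bound, beside 0.02 over all 12460 tested genes on either scale. Of 24 luminal breast markers, 4 were Off (AZGP1, SCGB2A2, SPDEF and TFF3) and 0 On, with a median of -1.53 on both scales. Of the 24 markers, 21 were above the floor on all 6 control arrays and 14 on all 18 knockdown arrays, while 6 were at or under it on all 18. On all 24 arrays 13 were above it, and 1, CDH1, was at or under it on all. KRT8 ran 5937 to 9471 on knockdown arrays and 5246 to 6063 on control arrays, and KRT19 4508 to 10040.0 on knockdown arrays and 12806 to 13992 on control arrays. GATA3 ran 148 to 213 on knockdown arrays and 97.6 to 111 on control arrays. KRT8 and GATA3 thus tended higher in the knockdowns, against the list's median, and KRT19 lower. The summed level of the 24 luminal markers was 23505 to 28712 on knockdown arrays, against 51351 to 55008 on control arrays.

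Trophoblast markers crossed the floor in both directions. Of 37 measured, 3 were On (CAPN6, CYP19A1 and HSD3B1) and 1 was Off, TFPI2, an inhibitor of matrix proteases. TFPI2 ran 90.3 to 102 (median 97.4) on the 18 knockdown arrays, against 107 to 117 (median 111) on the 6 control arrays. The list's median log2 difference was 0.74, or 0.79 with dim genes at their bound. Its summed level was 17646 to 18336 with PMCA2 knockdown, 14098 to 15514 with NHERF1 knockdown and 10939 to 11387 with HER2 knockdown, against 7027 to 7504 in control. Of the 37 markers, 12 were above the floor on all 18 knockdown arrays and 11 on all 6 control arrays, and 3 (HLA-G, PSG8 and PSG11) were at or under it on all 24. The 11 pregnancy-specific glycoproteins, 0 of them members, summed to 1961 to 2088 with PMCA2 knockdown, 1067 to 1098 with NHERF1 knockdown and 1048 to 1071 with HER2 knockdown, against 1266 to 1310.5 in control. Whether cells of another type contributed to the On genes was not tested. In the list of placental hormones, steroid enzymes and syncytins, 3 of 41 were On (CYP19A1, HSD3B1 and LEP) and 2 Off (HSD17B2 and TFPI2). Of 16 fibroblast markers, 1 was On, the fibrillar collagen COL3A1, while LUM was at or under the floor on all 24 arrays. The list's summed level was 1908 to 2734 on knockdown arrays, against 1760.3 to 1816 in control. Of 12 hepatocyte and yolk sac markers, 1 was Off, FGB. The 11 basal breast markers, with 0 members, summed to 4115 to 4852 on knockdown arrays, against 2174 to 2229.8 in control. The lists of basal breast, endothelial, leukocyte, melanocyte, neuron and muscle markers held 0 members, although members outside those short lists, such as MYL7 and CASQ2 of cardiac muscle and BTK and MNDA of blood cells, are known from such tissues.

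Elsewhere the lists held few members. Among homeobox factors outside the HOX clusters, LHX2 and PAX6 were On and IRX6 Off of 47, and of 29 HOX genes HOXC11 was Off. Of 61 cancer-testis genes, DPPA2, an embryonic factor, and TEX14, a germ-cell bridge protein, were On. DPPA2 ran 108 to 129.8 (median 114) on the 18 knockdown arrays, against 90.99 to 104 (median 99.5) on the 6 control arrays, and TEX14 112 to 134 (median 119.7) on the 18 knockdown arrays, against 87.6 to 94.8 (median 90.95) on the 6 control arrays; both stayed near the floor. IGF2BP3 was the On gene among 18 IGF genes, ABCB1 among 21 ABC exporters, IFIT1 among 38 interferon-stimulated genes, and S100A12 among 32 S100 proteins and annexins. Of 27 retinoid genes, CYP26A1 and CYP26B1 were On. Of 34 BMP and TGF-beta genes, BMP5 was On, and the receptor BMPR1B and the ligand TGFB2 were Off. TGFB2 ran 90.5 to 104 (median 97.8) on the 18 knockdown arrays, against 177 to 196 (median 190.1) on the 6 control arrays, and BMPR1B 94.4 to 102 (median 99.5) on the 18 knockdown arrays, against 118 to 136 (median 123) on the 6 control arrays. Of 31 SOX, GATA and TEAD-VGLL factors, VGLL3 was On and SOX9 Off. Keratins, epithelial junction genes, pregnancy-specific glycoproteins, imprinted genes, metallothioneins and the ERBB genes held 0 members in their lists; KRT75, an Off gene, is a keratin outside the list.

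The rule does not use differences between the knockdowns, so these were tested for On genes, which were above the floor on all 18 knockdown arrays. Off genes lie in the background there and were not tested. Calls are from limma fitted to 12460 genes, at a Benjamini-Hochberg adjusted p under 0.05. Between PMCA2 and HER2 knockdown, 110 of 136 On genes were called (80.9%), 58 higher with PMCA2 knockdown and 52 lower, beside 55.3% of all tested genes and 62.4% of the 9465 genes above the floor on all 18 knockdown arrays. Between NHERF1 and HER2 knockdown, 106 were called (77.9%), 67 higher with NHERF1 knockdown and 39 lower, beside 52.2% and 59.6%. Between PMCA2 and NHERF1 knockdown, 110 were called (80.9%), 49 higher with PMCA2 knockdown and 61 lower, beside 57.3% and 65.2%. On genes thus differed between knockdowns in most cases, in both directions. Differences that were called and at least 2-fold were found in 41 On genes (30.1%, 26 higher and 15 lower with PMCA2 knockdown) in the first contrast, beside 4.64% of tested genes and 4.34% of those above the floor. In the second it was 30 (22.1%, 21 higher and 9 lower with NHERF1 knockdown), beside 3.48% and 3.06%, and in the last 36 (26.5%, 16 higher and 20 lower with PMCA2 knockdown), beside 4.27% and 3.97%. The 3 contrasts share groups, so these counts are not independent of each other. On genes were also chosen for a change against control in every knockdown, and the comparison sets were not. The shares are therefore not on the same footing, and the gap between them was not tested.

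The median absolute log2 difference of On genes was 0.53, 0.48 and 0.54 in these contrasts, beside 0.19, 0.18 and 0.20 over all tested genes. The signed medians were close to 0, at 0.04, 0.15 and -0.09. Groups that were called and did not overlap were found in 83, 83 and 89 of 136 On genes. Over all 12460 tested genes the counts were 4252 (34.1%), 4025 (32.3%) and 4732 (38.0%). Called in all 3 contrasts were 68 On genes, and in none 5. By call, 35 On genes were above both other knockdowns in PMCA2 knockdown, 38 in NHERF1 knockdown and 25 in HER2 knockdown. The same counts over all tested genes are not given, so these numbers do not set On genes apart from others. Within a knockdown the median SD of log2 intensity of On genes was 0.12, 0.12 and 0.13 for PMCA2, NHERF1 and HER2, beside 0.42 over the 18 knockdown arrays. The arrays of a group on different chips differed by a median of 0.07 in log2.

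**Figure D4:**
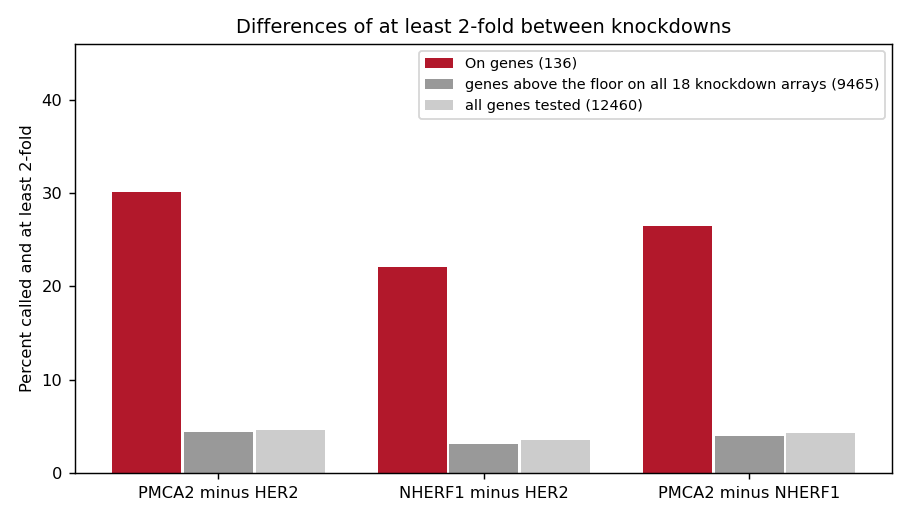
Percent of genes called by limma and at least 2-fold different (y axis, from 0) in each contrast between knockdowns, for the 136 On genes, the 9465 genes above the floor on all 18 knockdown arrays and all 12460 tested genes. On genes reach 22.1% to 30.1%, against 3.06% to 4.64% for the other sets, which were not chosen for a change against control.

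Some On genes were strongest with PMCA2 knockdown. SIGLEC6, a placental and leukocyte lectin that binds sialic acid, read 554 to 638 (median 587) on PMCA2 knockdown arrays, 166 to 177 (median 172) on NHERF1 knockdown arrays and 108 to 117 (median 110.1) on HER2 knockdown arrays, against 95.98 to 105 (median 102) on control arrays. The contrast PMCA2 minus HER2 knockdown gave log2 4.11 (SE 0.063, limma adjusted p = 2.5e-26), and PMCA2 minus NHERF1 knockdown gave log2 2.50 (SE 0.063, limma adjusted p = 7.2e-22). CYP19A1, aromatase, which makes estrogens, read 425 to 475 (median 447) on PMCA2 knockdown arrays, 127 to 144 (median 134) on NHERF1 knockdown arrays and 111 to 129 (median 119) on HER2 knockdown arrays, against 98.2 to 104 (median 99.03) on control arrays. CYP19A1 differed by log2 3.30 (SE 0.091, limma adjusted p = 3.6e-21) for PMCA2 minus HER2 knockdown and by log2 2.78 (SE 0.091, limma adjusted p = 2e-19) for PMCA2 minus NHERF1 knockdown. All 6 PMCA2 knockdown arrays were above every array of the other 2 knockdowns in both genes. With HER2 knockdown both genes were close to the floor, so the log2 sizes depend on the background correction. The SE does not cover this dependence. Without background correction, CYP19A1 differed by log2 1.91 for PMCA2 minus HER2 knockdown and by log2 1.73 for PMCA2 minus NHERF1 knockdown. The named differences between knockdowns then had 43% to 83.1% of their log2 size. LYN, a SRC-family kinase, read 368 to 439 (median 390.1) on PMCA2 knockdown arrays, 119 to 139 (median 131) on NHERF1 knockdown arrays and 115 to 128 (median 119.9) on HER2 knockdown arrays, against 94.4 to 102 (median 98.4) on control arrays. The contrast PMCA2 minus HER2 knockdown gave log2 3.01 (SE 0.089, limma adjusted p = 1.5e-20), and PMCA2 minus NHERF1 knockdown gave log2 2.69 (SE 0.089, limma adjusted p = 2.1e-19). TGM2, tissue transglutaminase, read 359 to 422 (median 394) on PMCA2 knockdown arrays, 208 to 226 (median 219) on NHERF1 knockdown arrays and 106 to 116 (median 115) on HER2 knockdown arrays, against 100.1 to 105 (median 102) on control arrays. The difference PMCA2 minus HER2 knockdown was log2 3.26 (SE 0.066, limma adjusted p = 4e-24). The HER2 knockdown arrays of TGM2 lay just above the floor. ANGPTL4, a lipoprotein lipase inhibitor, read 407 to 433 (median 421) on PMCA2 knockdown arrays, 124 to 140.3 (median 132) on NHERF1 knockdown arrays and 251 to 284 (median 271) on HER2 knockdown arrays, against 97.3 to 102 (median 99.9) on control arrays. ANGPTL4 differed by log2 2.75 (SE 0.06, limma adjusted p = 4.4e-23) for PMCA2 minus NHERF1 knockdown and by log2 -1.89 (SE 0.06, limma adjusted p = 1.3e-19) for NHERF1 minus HER2 knockdown. NHERF1 knockdown was the lowest of the 3.

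Others were strongest with NHERF1 knockdown. LEP, leptin, the adipose and placental hormone, read 114 to 129.9 (median 120.2) on PMCA2 knockdown arrays, 813 to 992 (median 976) on NHERF1 knockdown arrays and 123 to 139 (median 126) on HER2 knockdown arrays, against 98.9 to 106 (median 102) on control arrays. The contrast NHERF1 minus HER2 knockdown gave log2 4.23 (SE 0.086, limma adjusted p = 1.6e-23), and PMCA2 minus NHERF1 knockdown gave log2 -4.44 (SE 0.086, limma adjusted p = 2.4e-24). With PMCA2 and HER2 knockdown LEP was close to the floor, so these sizes depend on the background correction. Without it, LEP differed by log2 2.88 for NHERF1 minus HER2 knockdown and by log2 -2.95 for PMCA2 minus NHERF1 knockdown. GABBR2, a subunit of the GABA-B receptor, read 363 to 426 (median 394) on PMCA2 knockdown arrays, 784 to 904 (median 824) on NHERF1 knockdown arrays and 147 to 156 (median 151) on HER2 knockdown arrays, against 99.2 to 104 (median 101) on control arrays. The difference NHERF1 minus HER2 knockdown was log2 3.43 (SE 0.053, limma adjusted p = 1.2e-25). ALPG, a germ-cell and placental alkaline phosphatase, read 231 to 249.7 (median 238) on PMCA2 knockdown arrays, 462 to 494 (median 487) on NHERF1 knockdown arrays and 139.7 to 158 (median 153) on HER2 knockdown arrays, against 101 to 105 (median 102) on control arrays. The difference NHERF1 minus HER2 knockdown was log2 2.54 (SE 0.056, limma adjusted p = 4.9e-23). ALPG was lowest with HER2 knockdown. ABCB1, the P-glycoprotein drug exporter, read 119 to 136 (median 130.2) on PMCA2 knockdown arrays, 202 to 225 (median 219) on NHERF1 knockdown arrays and 107 to 110.0 (median 108) on HER2 knockdown arrays, against 93.7 to 99.8 (median 98.3) on control arrays. The difference NHERF1 minus HER2 knockdown was log2 2.32 (SE 0.076, limma adjusted p = 2.7e-19). With HER2 knockdown ABCB1 lay just above the floor, and without background correction this difference was log2 0.996. ANTXR1, an anthrax toxin receptor that binds collagen, read 129.5 to 139.6 (median 137) on PMCA2 knockdown arrays, 349 to 401 (median 364) on NHERF1 knockdown arrays and 229.6 to 257 (median 241) on HER2 knockdown arrays, against 95.9 to 100.4 (median 98.9) on control arrays. The difference PMCA2 minus NHERF1 knockdown was log2 -2.42 (SE 0.056, limma adjusted p = 1.4e-22).

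A last set was strongest with HER2 knockdown or weakest with PMCA2 knockdown. BMP5, a bone morphogenetic protein, read 150.4 to 166 (median 161) on PMCA2 knockdown arrays, 130.1 to 146 (median 137) on NHERF1 knockdown arrays and 527 to 592 (median 574) on HER2 knockdown arrays, against 97.00 to 104 (median 98.8) on control arrays. BMP5 differed by log2 -2.63 (SE 0.064, limma adjusted p = 1.8e-22) for PMCA2 minus HER2 knockdown and by log2 -3.11 (SE 0.064, limma adjusted p = 1.8e-23) for NHERF1 minus HER2 knockdown. MGARP, a mitochondrial adaptor protein, read 222 to 252 (median 232) on PMCA2 knockdown arrays, 1014 to 1192 (median 1119.7) on NHERF1 knockdown arrays and 1412 to 1633 (median 1443) on HER2 knockdown arrays, against 90.7 to 99.98 (median 95.7) on control arrays. The contrast PMCA2 minus HER2 knockdown gave log2 -3.20 (SE 0.053, limma adjusted p = 9.9e-26), and PMCA2 minus NHERF1 knockdown gave log2 -2.77 (SE 0.053, limma adjusted p = 1.9e-24). Its bound against control over all knockdowns was 23.9. DKK3, a secreted Wnt modulator, read 107 to 119 (median 114) on PMCA2 knockdown arrays, 311 to 365 (median 359) on NHERF1 knockdown arrays and 303 to 378 (median 347) on HER2 knockdown arrays, against 94.4 to 98.3 (median 97.1) on control arrays. DKK3 differed by log2 -3.04 (SE 0.087, limma adjusted p = 7.2e-21) for PMCA2 minus HER2 knockdown and by log2 -3.07 (SE 0.087, limma adjusted p = 7.9e-21) for PMCA2 minus NHERF1 knockdown. NHERF1 and HER2 knockdown were nearly level for DKK3. With PMCA2 knockdown DKK3 was close to the floor. Without background correction it differed by log2 -1.60 for PMCA2 minus HER2 knockdown and by log2 -1.62 for PMCA2 minus NHERF1 knockdown. PTPRM, a homophilic receptor phosphatase, read 152 to 162 (median 157) on PMCA2 knockdown arrays, 204 to 218 (median 214) on NHERF1 knockdown arrays and 374 to 431 (median 405) on HER2 knockdown arrays, against 96.6 to 105 (median 102) on control arrays. The difference PMCA2 minus HER2 knockdown was log2 -2.09 (SE 0.053, limma adjusted p = 5e-22). COL3A1, a fibrillar collagen, read 120.1 to 133 (median 126) on PMCA2 knockdown arrays, 117 to 139.5 (median 130.3) on NHERF1 knockdown arrays and 204 to 228 (median 213) on HER2 knockdown arrays, against 90.7 to 102 (median 95.8) on control arrays. The difference NHERF1 minus HER2 knockdown was log2 -1.52 (SE 0.089, limma adjusted p = 7.8e-14). DAW1, a dynein assembly factor of cilia, read 166 to 181 (median 176) on PMCA2 knockdown arrays, 120.2 to 125 (median 124) on NHERF1 knockdown arrays and 191 to 212 (median 201) on HER2 knockdown arrays, against 91.8 to 101 (median 96.1) on control arrays. The difference NHERF1 minus HER2 knockdown was log2 -1.54 (SE 0.053, limma adjusted p = 5.6e-19).

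**Figure D5:**
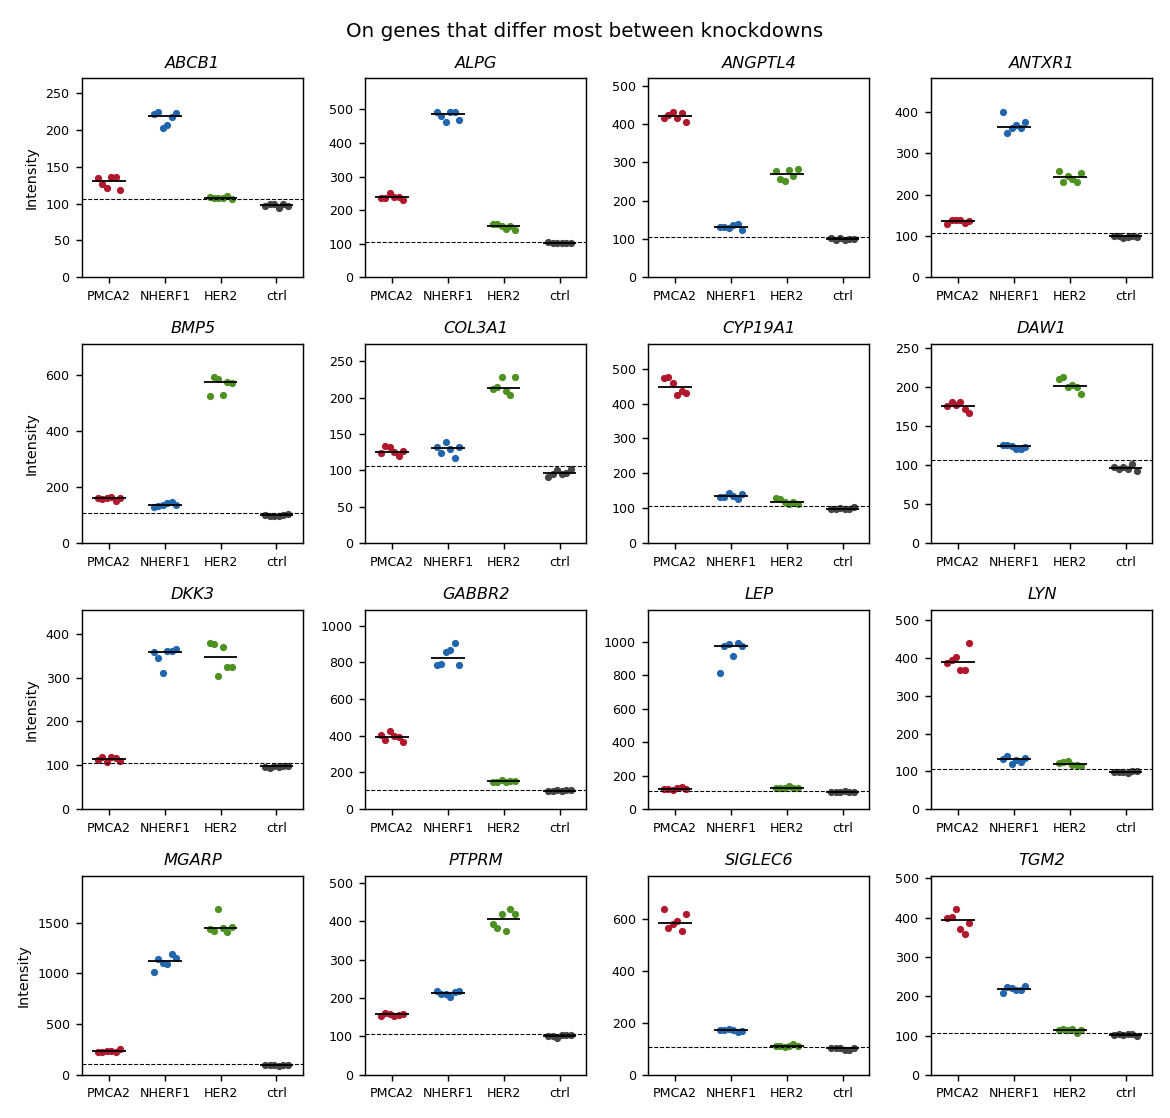
Probe intensity (y axis, linear, from 0) of 16 On genes on each array, in PMCA2, NHERF1 and HER2 knockdown and control (x axis), with a bar at each group's median and the floor as a dashed line. The group that stands highest changes from gene to gene: PMCA2 knockdown for SIGLEC6, NHERF1 knockdown for LEP and HER2 knockdown for BMP5.

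The same floor rule was applied between knockdowns, to show how often genes cross the floor without control. Above the floor on all 6 PMCA2 knockdown arrays and at or under it on all 6 HER2 knockdown arrays were 89 genes (0.444%), and the reverse held for 53 (0.264%). For NHERF1 and HER2 knockdown the counts were 64 (0.319%) and 31 (0.155%), and for PMCA2 and NHERF1 knockdown 61 (0.304%) and 57 (0.284%). With 6 arrays against 6 these counts are not on the same footing as those of 18 against 6.

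Several members sat next to the floor, which is 105.98 before rounding. Among On genes, CASQ2, calsequestrin of cardiac muscle, read 106.06 on its lowest knockdown array and 98.96 on its highest control array, and TGM2 106.12 on its lowest knockdown array and 104.67 on its highest control array. SLC12A3 was bright on all knockdown arrays and entered through a control array at 105.95. Just outside lay FXYD1, with 105.87 on its lowest knockdown array and 105.92 on its highest control array and 17 of 18 knockdown arrays above the floor. SLC68A1 and SPRR3 each had 1 control array above it, at 106.12 and 106.14. Among Off genes, MNDA, a nuclear protein of myeloid cells, read 104.80 on its highest knockdown array and 106.03 on its lowest control array, INPP1 105.85 on its highest knockdown array and 108.51 on its lowest control array and SEMA3B 105.96 on its highest knockdown array and 167.35 on its lowest control array. SLC51A, HOXC4 and HOTAIR lay just outside, each with 1 knockdown array above the floor, at 105.99, 106.00 and 106.02.

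Other probes of the same genes tell how far a call rests on 1 probe. For 51 On genes there were 90 further probes, of which 13 (12 genes) fulfilled the rule the same way, 0 the reverse, and 31 were at or under the floor on all 24 arrays. In 13 On genes another probe was above the floor on at least 1 control array. LEP was one, whose other probe averaged 223 on knockdown and 149.6 on control arrays. LAMP3 was another, at 126 on knockdown and 119 on control arrays. A further probe of ANGPTL4 averaged 138 on knockdown and 133 on control arrays, so its On call rests on the probe used. Such probes of CYP19A1 averaged 158, 103 and 98.7 on knockdown and 101, 102 and 100.8 on control arrays. For ANTXR1 one averaged 112 on knockdown and 103 on control arrays, and for TGM2 106 and 99.6. The others of the 13 were GPER1, KCNAB1, NPAS3, SIGLEC5, SLC26A8, TRAF5 and ZXDA. For 37 Off genes there were 45 further probes, of which 8 (7 genes) fulfilled the rule, 0 the reverse, and 15 were at or under the floor everywhere, while in 11 genes another probe was above it on at least 1 knockdown array. One was MECOM, with a further probe at 109 on knockdown and 102.5 on control arrays, in the direction opposite to its Off call. Probes of genes with near-identical relatives, such as ORM1, ALPG and S100A7A, may also read the relative, so these calls are uncertain. In genome order, 4 of 19995 neighbouring pairs of measured genes were both members, and in all 4 both had the same direction. Members were 1.22% of all genes, and whether 4 pairs are more than chance gives was not tested. These were the 2 pairs among SCGB2A1, SCGB1D2 and SCGB2A2 (Off), the intelectins ITLN1 and ITLN2 (On), and P2RX6 and SLC7A4 (On). ITLN1 ran 107 to 127 (median 114) on the 18 knockdown arrays, against 91.1 to 99.05 (median 95.8) on the 6 control arrays, and ITLN2 110.4 to 193 (median 138) on the 18 knockdown arrays, against 91.5 to 98.6 (median 95.7) on the 6 control arrays. P2RX6, an ATP-gated channel, ran 129 to 204 (median 178) on the 18 knockdown arrays, against 93.1 to 102 (median 95.3) on the 6 control arrays, and SLC7A4, an amino acid transporter relative, ran 106 to 180.2 (median 135) on the 18 knockdown arrays, against 96.2 to 103 (median 99.3) on the 6 control arrays. Intelectins are close relatives, so their probes may read one another.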

How the data were processed

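Total RNA of 24 SKBR3 samples was labelled with biotin and hybridised to Illumina arrays, per the labels' protocols. The deposited values are probe intensities on a linear scale, which the authors had normalized. How they did so, and with which software, is not given in the sources used here. When each array's values are sorted, arrays differ at a given rank by 0.406% or less, and the smallest value is 81.6, so background was not subtracted. A second table of signals, with 24 signal columns whose names match no label, was not used, although the design had allowed for it. Arrays carry no counts, so their number limits the precision.

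Of 47323 probes, 30113 have 1 gene symbol in the platform annotation, 8 have several and 17202 have none listed; 30074 matched the RefSeq gene table (GRCh38.p14), giving 20046 genes. For bounds and tests, background was corrected with normexp on the olfactory receptor probes (offset 16), followed by quantile normalization and log2. limma 3.58.1 (R 4.3.3) was fitted to all 4 groups over 12460 genes above the floor on at least 6 arrays, with Benjamini-Hochberg adjustment; other steps used Python 3.11.15. The fit was tested on simulated data with known changes.

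The members and gene lists were chosen with earlier results of these data known, and role classes with the gene names in view. Genes named with values were the 15 On and 15 Off genes with the largest bounds, up to 4 members per list, the 4 largest differences each way per contrast between knockdowns among called genes whose groups do not overlap, the 3 genes on either side of the floor, and neighbouring members. Others named by role with their bound were chosen after their values were seen. NHERF2 and the markers FOXA1, KRT8, KRT19 and GATA3, also given with values, fall outside these rules. Alternatives covered the floor, the probe choice, single chips, single knockdowns, left-out replicates, the replicate number or chip as a block and no background correction.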

Additional observations from a re-analysis of the deposited data

Results flagged for a closer look

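In 7 of 162 groups of 6 arrays, 1 array stood apart from the other 5 by Dixon's ratio (its gap to the nearest array over the group's range, above its 95% critical value); chance alone flags about 1 in 20 groups. MGARP with HER2 knockdown had a ratio of 0.797, from replicate 3 at 1633 beside 1412 to 1457 on the others. TGM2 with HER2 knockdown had 0.764, from replicate 5 at 106 beside 114 to 116. CAPN6 with PMCA2 knockdown had 0.692, from replicate 1 at 1695 beside 1307 to 1426. LEP with HER2 knockdown had 0.664, from replicate 4 at 139 beside 123 to 128. DKK3 with NHERF1 knockdown had 0.643, from replicate 3 at 311 beside 345 to 365. ADAMTS1 with HER2 knockdown had 0.64, from replicate 5 at 872 beside 945 to 986. BMPR1B in control had 0.64, from replicate 1 at 136 beside 118 to 125.

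On genes whose level differed between knockdowns were tested with limma, and the log2 differences of the named ones follow. They are on the background-corrected scale, and their sizes depend on that correction. For PMCA2 minus HER2 knockdown they were 4.11 for SIGLEC6, 3.30 for CYP19A1, 3.26 for TGM2, 3.01 for LYN, -3.20 for MGARP, -3.04 for DKK3, -2.63 for BMP5 and -2.09 for PTPRM. For NHERF1 minus HER2 knockdown they were 4.23 for LEP, 3.43 for GABBR2, 2.54 for ALPG, 2.32 for ABCB1, -3.11 for BMP5, -1.89 for ANGPTL4, -1.54 for DAW1 and -1.52 for COL3A1. For PMCA2 minus NHERF1 knockdown they were 2.78 for CYP19A1, 2.75 for ANGPTL4, 2.69 for LYN, 2.50 for SIGLEC6, -4.44 for LEP, -3.07 for DKK3, -2.77 for MGARP and -2.42 for ANTXR1. Which group stood highest changed from gene to gene. All 24 differences kept their call with either chip alone. They were picked on these same arrays as the largest called differences without overlap, so this is no independent support.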

How the results depend on the processing

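The On and Off counts (136 and 109) depend on the floor and on how many arrays must agree. Off genes numbered 71 with the floor at the 90th percentile of the olfactory receptor probes and 215 at the 99th, beside 99 and 200 On genes, of which 79 and 95 were among the 136. Within chip 1 alone Off genes numbered 172 and within chip 2 alone 170, beside 202 and 190 On genes. With 1 knockdown set against control, On and Off genes numbered 261 and 207 for PMCA2, 259 and 221 for NHERF1, and 232 and 241 for HER2. Asking for more than 2 times the floor on the bright side left 25 On and 20 Off genes. Counting any probe gave 161 and 147, asking every probe 92 and 78, a floor per array 144 and 102, and adding olfactory receptor pseudogene probes to the floor, chosen after seeing the data, 138 and 119. Leaving out each replicate in turn gave 145 to 158 On and 115 to 126 Off genes, since fewer arrays must agree. Without background correction, added after seeing the data, the median bounds were 1.51 and 1.33, beside 3.09 and 2.35. With the replicate number as a block, 110, 106 and 109 On genes were called for PMCA2 minus HER2, NHERF1 minus HER2 and PMCA2 minus NHERF1; same-numbered samples did not deviate together (r from -0.0565 to 0.111 over 36 pairs), so the numbers were not taken as pairing. The chip as a block gave 109, 107 and 111, leaving out replicates 104 to 109, 103 to 105 and 104 to 108, and single chips 92 to 103. All 24 named differences between knockdowns kept direction and call under the 14 alternatives tried for each, 336 in all, at 43% to 83.1% of their log2 size without background correction. Because the 24 were picked on the same arrays as the largest differences without overlap, their keeping the call is no independent support. The alternative on the non-normalized table was not run, because its columns could not be matched to samples. Signal over background is one limit: the lowest bright array exceeds 2 times the floor in 25 of 136 On and 20 of 109 Off genes.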
